A study of Mus musculus with 2 samples.

Results

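The genes described here are the autosomal forkhead transcription factor genes of the mouse, chosen as the protein-coding genes whose GENCODE M21 symbol is Fox followed by one letter and a number. There were 41 of them among 20807 autosomal protein-coding genes. CpG methylation (%mCpG) was measured by RRBS in female Xmas mESCs, a C57/Bl6 embryonic stem cell line in which GFP and mCherry, both driven from Hprt, sit on different X chromosomes. Cells grown by the modified culture method were sorted by FACS into XX cells, which carried both reporters, and XO cells, which had kept 1 of them. Both groups come from the same line and share the strain and culture method. Each karyotype gave 1 library, so differences are described without replicates and without a test. The labels give 7 passages before the sort for both libraries, whereas the methods of the study give a higher number.

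Forkhead proteins bind DNA through a winged helix domain and act in most lineages of the embryo. Some are pioneer factors that open compacted chromatin, such as the Foxa proteins of the endoderm, and others carry signals to the nucleus, such as Foxh1, the Smad partner in Nodal signalling, and the Foxo proteins, which insulin signalling keeps out of the nucleus. In embryonic stem cells Foxd3 and Foxh1 are active, Foxo1 and Foxo3 have been tied to the pluripotent state, and many of the remaining members are silent developmental regulators whose starts lie in CpG islands.

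Each gene was read in 3 zones. The promoter covers 1 kb either side of the start of the gene record, the gene body runs from there to the gene end, and the upstream stretch lies from 5 kb to 1 kb before the start. A zone was given a value where the deposited table lists at least 5 of its CpG cytosines, with the cytosines of both strands listed separately. Promoters held 15 to 221 listed cytosines, bodies 6 to 369 and upstream stretches 5 to 73. RRBS reads start at CCGG sites, so cytosines near the same end of a fragment are read together and often carry the same value. The number of such fragment ends, 3 to 31 per promoter, 4 to 148 per body and 2 to 16 per upstream stretch, is therefore given beside the main values. All errors below are SDs over CpG cytosines or fragment ends within a library. They describe spread along the gene, not between cultures.

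The promoters of most forkhead genes were close to unmethylated in both libraries. The bases before the start of Foxn2 and of 3 members among the lowest in XO are printed to show what such DNA looks like, 5′ to 3′ on the strand of the gene (RefSeq sequence of GRCm38.p6), with the CpGs whose methylation the table lists in capitals. Over these 250 bases Foxn2 averaged 1.21% in XX and 1.62% in XO, Foxm1 1.85% and 0.389%, Foxj2 2.24% and 5.36%, and Foxn3 2.29% and 2.65%. Foxm1 had 41 CpGs in its stretch and Foxj2 30. The Foxn2 value rested on 6 listed cytosines in a stretch of 28 CpGs, all at the end farthest from the start. Foxn2 was picked for its large promoter difference. The low values of Foxm1, Foxj2 and Foxn3 follow from how they were picked.
Foxn2 at chr17:88440461-88440710, plus strand: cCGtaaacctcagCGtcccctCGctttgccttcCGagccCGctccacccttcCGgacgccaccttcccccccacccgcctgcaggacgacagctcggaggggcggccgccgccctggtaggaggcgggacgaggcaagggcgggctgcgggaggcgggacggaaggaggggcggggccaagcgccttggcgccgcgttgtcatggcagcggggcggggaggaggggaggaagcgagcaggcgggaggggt
Foxm1 at chr6:128362717-128362966, plus strand: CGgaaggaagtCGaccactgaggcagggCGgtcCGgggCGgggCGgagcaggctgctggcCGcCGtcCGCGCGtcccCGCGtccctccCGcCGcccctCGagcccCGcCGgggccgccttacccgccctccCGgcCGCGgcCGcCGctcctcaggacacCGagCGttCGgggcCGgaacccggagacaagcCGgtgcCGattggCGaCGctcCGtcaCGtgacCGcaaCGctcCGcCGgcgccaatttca
Foxj2 at chr6:122819664-122819913, plus strand: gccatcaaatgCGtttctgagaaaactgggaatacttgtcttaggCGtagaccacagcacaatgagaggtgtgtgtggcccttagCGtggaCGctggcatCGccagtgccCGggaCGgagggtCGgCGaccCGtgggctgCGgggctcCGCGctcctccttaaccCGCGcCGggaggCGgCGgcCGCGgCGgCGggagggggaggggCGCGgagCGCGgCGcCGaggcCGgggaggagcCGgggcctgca
Foxn3 at chr12:99563583-99563832, minus strand: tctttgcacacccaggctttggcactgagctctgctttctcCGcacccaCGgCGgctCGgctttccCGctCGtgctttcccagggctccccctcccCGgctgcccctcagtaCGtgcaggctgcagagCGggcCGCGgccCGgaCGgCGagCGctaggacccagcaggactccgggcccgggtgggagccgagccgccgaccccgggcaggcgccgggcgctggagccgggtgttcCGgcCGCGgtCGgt

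3 further stretches, all selected after their values were seen, hold the cytosines that set several of the largest differences in the family. In Foxn2 it lies upstream of the start and ends where the Foxn2 bases printed above begin, and in Foxb2 and Foxi2 it lies within a coding exon. Listed CpGs are again in capitals.
Foxn2 at chr17:88440261-88440460, plus strand: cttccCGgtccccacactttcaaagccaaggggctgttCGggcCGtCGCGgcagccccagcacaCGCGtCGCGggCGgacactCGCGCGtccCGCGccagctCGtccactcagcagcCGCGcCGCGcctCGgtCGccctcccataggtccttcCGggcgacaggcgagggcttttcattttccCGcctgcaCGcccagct
Foxb2 at chr19:16873250-16873480, minus strand: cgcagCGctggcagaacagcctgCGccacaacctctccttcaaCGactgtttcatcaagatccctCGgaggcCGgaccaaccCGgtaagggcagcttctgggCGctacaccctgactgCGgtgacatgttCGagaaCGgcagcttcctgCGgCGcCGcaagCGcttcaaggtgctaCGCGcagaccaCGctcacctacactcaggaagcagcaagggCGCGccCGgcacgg
Foxi2 at chr7:135411838-135412018, plus strand: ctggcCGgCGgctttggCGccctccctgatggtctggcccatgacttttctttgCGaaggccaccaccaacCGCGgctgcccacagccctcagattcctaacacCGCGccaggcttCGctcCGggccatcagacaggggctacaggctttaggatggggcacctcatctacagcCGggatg

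In the Foxn2 stretch 25 cytosines from 3 fragment ends averaged 5.93% in XX and 40.6% in XO, and all 25 were lower in XX. The forward strand read 0% in XX and 57.6% in XO, and the reverse strand 9.89% and 29.3%. In Foxb2 the averages were 15.8% and 32.6%, with 15 of 21 cytosines, from 3 fragment ends, lower in XX. All 3 stretches were picked on their values, so the shares of cytosines given here follow from that choice. Foxi2 showed the opposite sign, as its stretch averaged 35.9% in XX and 23.2% in XO and 14 of 15 cytosines were higher in XX.

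Across promoters, forkhead genes were weakly methylated in both karyotypes and slightly less so in XX. The median promoter was at 6.18% in XX and 7.39% in XO, and the median difference, XX minus XO, was -1.21 percentage points (37 genes measured, range -16.9 to 5.79). 30 promoters were lower in XX (81.1%) and 7 were higher, where 65.2% of all autosomal protein-coding promoters were lower. At a threshold of 5 points, 6 were lower (16.2% of those measured, against 21.3% of all promoters) and 1 was higher (2.70%, against 5.82%). The quartiles of the difference were -2.61 and -0.33 points. The median promoter of all genes was at 7.33% in XX and 8.65% in XO with a median difference of -1.27. The forkhead median of -1.21 was 0 when the median over cytosines was taken per gene and -0.639 within 500 bp of the start. 4 promoters (10.8%) had at least 20% methylation in XO, where 17.1% of all promoters did. Of the members without a value, Foxj3, Foxn1 and Foxq1 had no listed promoter cytosine and Foxr1, a little-studied member, had 2.

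**Figure D1:**
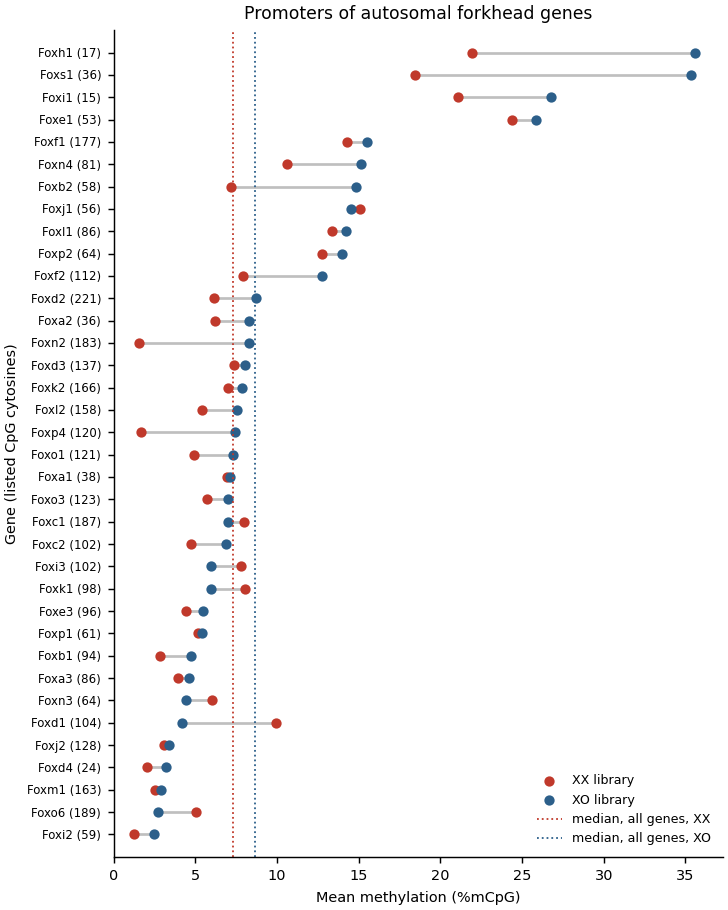
Mean methylation (%mCpG) of 36 measured promoters in the XX library (red) and the XO library (blue), ordered by the XO value, with the number of listed CpG cytosines in brackets and the medians over all autosomal protein-coding genes as dotted lines. Foxh1 and Foxs1 stand at 35.6% and 35.3% in XO and at 21.9% and 18.5% in XX, and apart from these, Foxi1 and Foxe1, the promoters shown are below 20% in XO.

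The promoters most methylated in XO belonged to Foxh1, Foxs1, Foxi1, Foxe1 and Foxf1. Foxh1 lies on the minus strand at chr15:76668225-76669948 (GRCm38) and has 3 coding exons. Its promoter averaged 21.9% (SD 14.1) in XX and 35.6% (SD 17.5) in XO over 17 cytosines, a difference of -13.6 points. All of these cytosines lay 500 to 1000 bases inside the gene, and all 4 of their fragment ends were lower in XX. The Foxs1 promoter averaged 18.5% (SD 16.02) in XX and 35.3% (SD 15.3) in XO over 36 cytosines, a difference of -16.9 points that was the largest among the promoters measured. Foxs1 (chr2:152931898-152933208, minus strand) is a small gene with 1 coding exon, expressed in sensory neurons and vessel walls, and 9 of the 11 fragment ends in its promoter were lower in XX. The difference was -11.4 on forward cytosines and -21.3 on reverse cytosines, so both strands carried it.

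Foxi1, a factor of the inner ear and of acid-secreting kidney cells, was at 21.1% in XX and 26.8% in XO over 15 cytosines. Its difference of -5.72 points rested on 3 fragment ends and changed sign between strands, from -15.1 on forward to 13.0 on reverse cytosines. Foxe1, the thyroid factor, was at 24.4% in XX and 25.9% in XO over 53 cytosines, and its methylation was split within the promoter. The first 500 bases of the gene averaged 2.57% in XX and 1.07% in XO, and the next 500 averaged 45.4% and 49.7%. Foxf1, a factor of the lung and gut mesenchyme, was at 14.3% and 15.5% over 177 cytosines. Its forward cytosines differed by -8.04 points and its reverse cytosines by 7.65, so the small mean difference hid opposite signs by strand.

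Among promoters that were weakly methylated in XX, Foxb2, Foxn2 and Foxp4 passed the threshold. Foxb2, a neural member with 1 coding exon, averaged 7.18% (SD 9.85) in XX and 14.8% (SD 22.7) in XO over 58 cytosines. Its difference of -7.62 points was widest in the first 500 bases, which averaged 12.9% in XX and 30.5% in XO, while the next 500 averaged 4.01% and 3.32%. Foxn2 (chr17:88440711-88490533, plus strand), a widely expressed gene with 5 coding exons, averaged 1.56% (SD 3.41) in XX and 8.28% (SD 16.2) in XO over 183 cytosines. The 500 bases before its start, which hold the stretch printed above, averaged 5.02% and 33.1%, while the 500 bases after it averaged 0.967% and 2.34%. Foxp4, a factor of lung and gut epithelium, averaged 1.69% in XX and 7.39% in XO over 120 cytosines, a difference of -5.70 points. Its first 500 bases averaged 2.61% and 12.0%. In each of these genes the widest gap lay in 1 window of 500 bases, and smaller differences lay in others.

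Foxd1, Foxo6 and Foxk1 had the largest differences in the opposite direction. The promoter of Foxd1 (chr13:98354242-98359305, plus strand), a factor of the kidney stroma and the retina, averaged 9.94% (SD 16.5) in XX and 4.15% (SD 9.25) in XO over 104 cytosines. This difference of 5.79 points appeared on both strands, at 7.67 on forward and 3.69 on reverse cytosines, and in 10 of 16 fragment ends. It was the 1 promoter of the family that was higher in XX by at least 5 points. Foxo6, the brain-enriched Foxo gene, averaged 5.06% and 2.73% over 189 cytosines, with 17 of 27 fragment ends higher in XX and 5 lower. Foxk1, which represses genes of autophagy in muscle, averaged 8.005% and 5.95% over 98 cytosines, but 10 of its 17 fragment ends were lower in XX.

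The members tied to pluripotency or to Nodal and insulin signalling, other than Foxh1, differed by less than 3 points. The Foxd3 promoter was at 7.33% in XX and 8.06% in XO (137 cytosines), that of Foxo1 at 4.91% and 7.30% (121 cytosines) and that of Foxo3 at 5.69% and 7.01% (123 cytosines). Foxa2, which patterns the node and the endoderm, was at 6.18% and 8.30% over 36 cytosines. Foxp1, of which embryonic stem cells make an isoform of their own, was at 5.18% and 5.40% over 61 cytosines. In Foxo1, Foxd3 and Foxp1 the difference changed sign between strands.

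Genes that dividing cells use broadly were at or below 8% in both libraries in the following cases. Foxm1, the driver of mitotic genes, averaged 2.54% in XX and 2.88% in XO over 163 cytosines in a promoter it shares with Rhno1, which starts 56 bases away on the opposite strand. Foxj2 averaged 3.07% and 3.40%, Foxn3 6.03% and 4.401%, and Foxk2 7.01% and 7.86%. A list of 14 members taken as active in embryonic stem cells or in most cells was set beside the rest. It held Foxd3, Foxh1, Foxj2, Foxj3, Foxk1, Foxk2, Foxm1, Foxn2, Foxn3, Foxo1, Foxo3, Foxo6, Foxp1 and Foxp4, although Foxo6 is enriched in brain. Over its 13 measured promoters the medians were 5.18% in XX against 7.01% in XO. Of these, Foxh1, Foxn2 and Foxp4 (23.1%) were lower by at least 5 points, where 21.3% of all promoters were. Over the other 24 the medians were 7.49% and 8.51%, and 3 were lower and 1 higher (against 21.3% and 5.82%). The medians of the listed and the remaining members were within 3 points of each other in either library.

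Among lineage-restricted members, the endoderm factors Foxa1 and Foxa3 averaged 6.95% and 3.91% in XX and 7.09% and 4.59% in XO. The mesoderm and vessel factors Foxc1 and Foxc2 were at 8.002% and 4.74% in XX and 6.99% and 6.86% in XO. These genes were low in both libraries, whatever the direction of the difference. The gut mesenchyme genes Foxf2 and Foxl1 were at 7.92% and 13.4% in XX and at 12.7% and 14.2% in XO. Foxn4, a factor of retinal interneurons, was at 10.6% and 15.2%, and Foxj1, the switch gene for motile cilia, was at 15.1% and 14.5%. Foxp2, known for its part in speech and song, was at 12.8% and 14.0%. Foxf2 and Foxn4 were just short of the threshold, at -4.80 and -4.52 points.

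The remaining promoters were low as well. Foxl2, which keeps ovarian identity, was at 5.42% in XX and 7.52% in XO, Foxd2 at 6.11% and 8.72%, and Foxb1, a factor of the hypothalamus, at 2.83% and 4.74%. Foxe3, the lens factor, was at 4.43% and 5.44%, and Foxd4, a neural plate factor, at 2.01% and 3.21%. Foxi2 had the lowest promoter in both libraries, at 1.23% and 2.46%, and its neighbour in the subfamily, the placode factor Foxi3, was at 7.81% and 5.97%. None of these 7 differed by more than 3 points.

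Averaged by distance from the start, methylation of forkhead genes was low in the 500 bases before it, at 5.86% in XX and 7.06% in XO over 849 cytosines. It was 6.60% and 7.81% in the 500 bases after the start. Unlike the average over all genes, the forkhead average stayed low for several kb into the gene, at 5.87% in XX and 11.4% in XO between 2 and 2.5 kb downstream, where all genes averaged 14.3% and 20.003%. In that bin Hox genes averaged 12.6% and 14.4%, and Sox, Tbx, Pax, Gata, Lhx and Nkx genes 13.4% and 16.2%. Both sets were also low between 4.5 and 5 kb downstream, at 4.48% and 5.70% and at 9.83% and 13.6%. All genes averaged 17.8% and 26.3% there. No test was made of these contrasts. From 3.5 to 5 kb downstream the forkhead averages were higher in XX than in XO, by 2.35, 0.59 and 2.49 points on 138, 80 and 89 cytosines. Few genes filled the last of these bins, as Foxa1 gave 43 of the 80 cytosines and Foxc1 54 of the 89. The widest gap lay farthest upstream. Between 4.5 and 4 kb before the start the averages were 22.5% and 41.1%, on 36 cytosines.

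**Figure D2:**
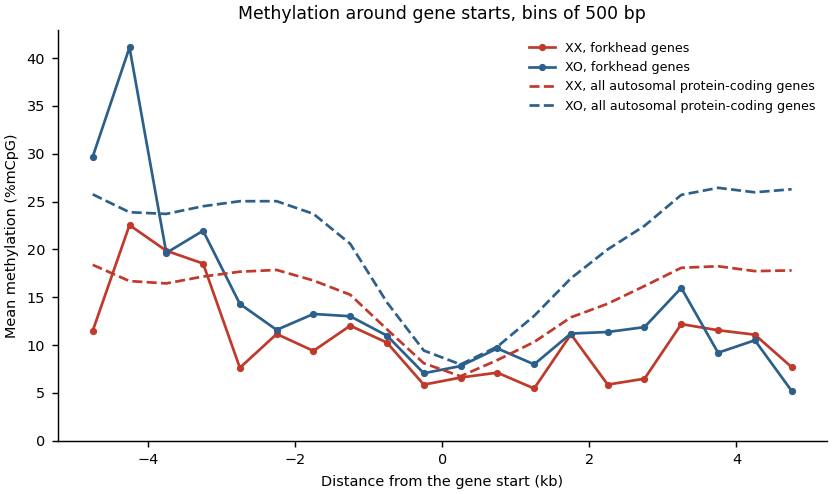
Mean methylation (%mCpG) in 500 bp bins by distance from the gene start (kb, negative values upstream) for forkhead genes (solid lines with points) and all autosomal protein-coding genes (dashed lines), XX in red and XO in blue. The forkhead lines are low just before the start, at 5.86% and 7.06%, and part most at the far upstream end, where the bin of 4.5 to 4 kb rests on 36 cytosines.

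Gene bodies carried larger differences than promoters, and these were uneven across the family. The median forkhead body was at 13.2% in XX and 14.3% in XO, with a median difference of -5.01 points (36 genes measured, range -22.5 to 12.7), while the median over all autosomal protein-coding genes was 26.7% and 42.6% with a median difference of -13.8. 31 bodies were lower in XX, 86.1% of those measured against 94.3% of all genes. At a threshold of 10 points 11 bodies were lower, 30.6% against 64.6% of all genes, and 1 was higher, 2.78% against 0.517%. The forkhead share past the threshold was thus below that of all genes, in a set whose bodies were also less methylated in XO. Foxe3 is too short to have a body beyond its promoter, and Foxh1, Foxi1, Foxi3 and Foxk2 had no listed body cytosine.

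Among bodies with at least 10 cytosines, those lowest in XX relative to XO were Foxr1, Foxp2, Foxn4, Foxn1, Foxa3 and Foxk1. Foxr1 averaged 16.3% (SD 15.2) in XX and 38.8% (SD 16.3) in XO over 19 cytosines, of which 18 were lower in XX, a difference of -22.5 points. Foxp2 averaged 42.7% (SD 27.4) and 64.6% (SD 25.2) over 21 cytosines, and 12 of its 13 fragment ends were lower in XX. Foxn4 averaged 41.9% (SD 26.2) and 62.6% (SD 26.6) over 27 cytosines, and all 13 of its fragment ends were lower. Few cytosines were read in these 3 bodies, but nearly every fragment end pointed the same way.

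Foxn1, the gene that the thymic epithelium and hair follicles require, averaged 19.0% in XX and 38.3% in XO over 29 cytosines, with 17 of 18 fragment ends lower in XX. Foxa3 averaged 13.5% and 29.3% over 46 cytosines, and Foxk1 29.8% and 44.7% over 133. In Foxk1 42 of 54 fragment ends were lower in XX and 11 higher. Its promoter mean was 2.06 points higher in XX, although 10 of the 17 promoter fragment ends were lower in XX and 5 were higher. Foxs1 was lower in XX in its body too, at 37.5% and 54.8%, and its difference of -17.3 points, larger than those of Foxa3 and Foxk1, was on 6 cytosines.

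Foxp1, Foxn3 and Foxp4 are long genes with many listed cytosines. These were still only 2.35%, 3.58% and 10.4% of the CpG cytosines of the reference in their bodies. Foxp1 averaged 23.7% (SD 24.6) in XX and 38.0% (SD 32.2) in XO over 333 cytosines, with 111 of 141 fragment ends lower in XX. Foxn3 averaged 22.4% (SD 22.8) and 35.2% (SD 29.6) over 369 cytosines, with 112 of 148 fragment ends lower. Foxp4 averaged 19.3% and 28.6% over 206 cytosines, just short of the threshold at -9.26 points. All 4 measured Foxn bodies passed it, from -20.7 points in Foxn4 to -12.8 in Foxn3, with Foxn2 at 25.6% and 39.0%. Foxj2, at 28.9% and 40.5%, passed it as well.

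The signalling genes lay between. Foxo3 averaged 21.4% in XX and 28.9% in XO over 174 cytosines and Foxo1 13.3% and 20.4% over 84, differences of -7.50 and -7.08 points. Foxo6 averaged 5.73% and 6.88% over 227 cytosines, so the 3 Foxo bodies were unlike in level. Foxa2 averaged 7.45% and 11.9% over 113 cytosines, and Foxa1 5.97% and 7.04% over 173. Foxd3 had the lowest body in XO, at 1.68% in XX and 2.18% in XO over 39 cytosines. The bodies of Foxf1 (27.8% and 37.1%) and Foxm1 (25.5% and 32.4%) were lower in XX by less than 10 points, and those of Foxf2, Foxd1, Foxd4 and Foxc1 differed by less than 1 point.

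Foxq1, a hair follicle factor, and Foxj3 were read in their bodies without a promoter value. Foxq1 averaged 9.004% in XX and 12.0% in XO over 172 cytosines and Foxj3 3.56% and 6.15% over 235, so the mean of either body was low in both libraries. In Foxj3, however, 229 of these cytosines lay around annotated coding starts 2.66 kb inside the gene. Those farther inside were more methylated, at 52.2% and 63.3% on 2 cytosines 45 kb from the start and 37.0% and 64.4% on 4 cytosines at 48.5 kb. The developmental genes Foxj1 (10.4% and 15.8%), Foxb2 (2.20% and 7.27%) and Foxc2 (3.73% and 8.69%) were lower in XX by about 5 points. Foxd2 (5.69% and 8.60%), Foxl1 (5.51% and 7.26%), Foxe1 (1.63% and 3.22%) and Foxl2 (7.18% and 8.13%) were closer still, and Foxb1 was higher in XX, at 13.2% and 9.91%. In these genes the level of the body resembled that of the promoter in staying under 20% in both libraries, except for the Foxe1 promoter.

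Foxi2 (chr7:135410308-135413622, plus strand, 2 coding exons) was the 1 member past the threshold in the other direction. Its body averaged 35.9% (SD 10.9) in XX and 23.2% (SD 11.9) in XO over 15 cytosines from 4 fragment ends, of which 3 were higher in XX. The difference of 12.7 points was 10.7 on forward and 14.5 on reverse cytosines. Counting each fragment end once it was 7.59 points, with an SD of 12.7 over the 4 ends, so it rested on little sequence. All of these cytosines lie in the coding stretch of Foxi2 printed above.

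**Figure D3:**
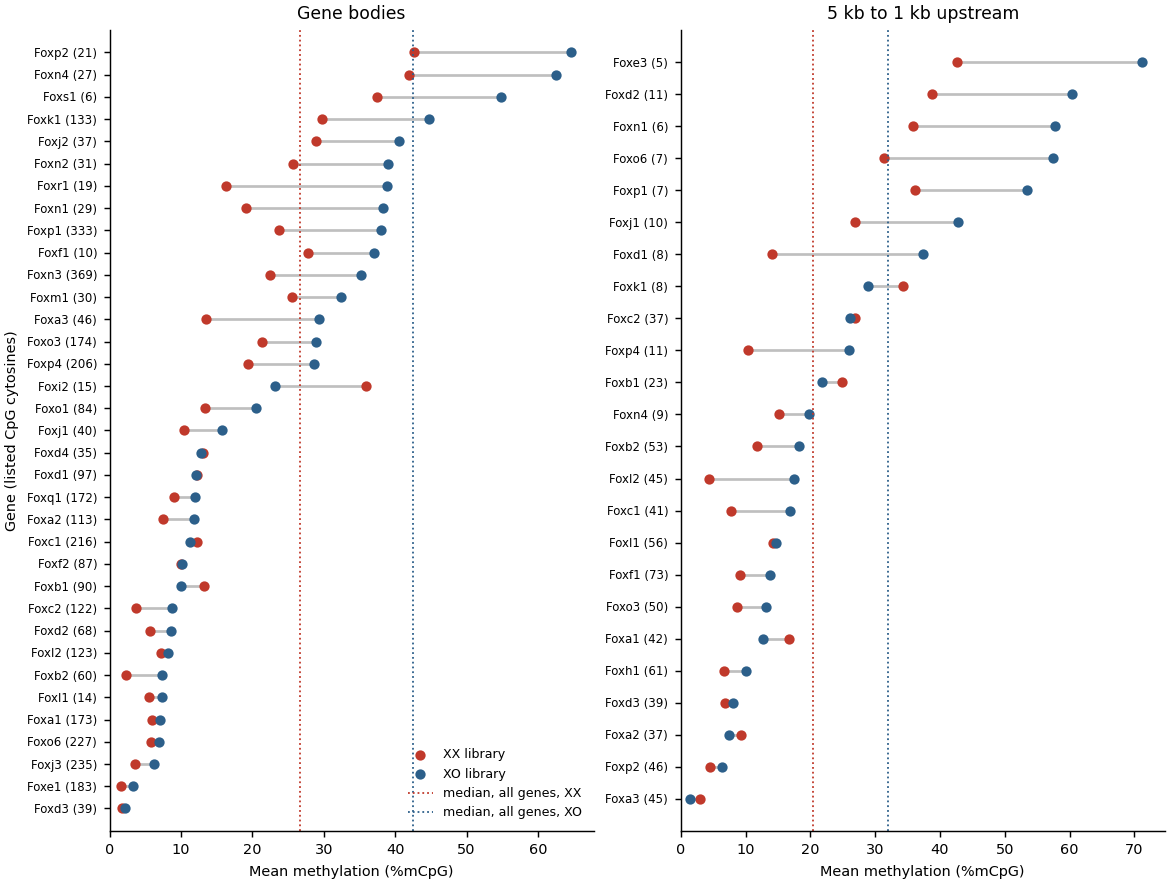
Mean methylation (%mCpG) of 35 measured gene bodies (left) and the 24 measured upstream stretches (right) in the XX library (red) and the XO library (blue), ordered by the XO value, with the number of listed CpG cytosines in brackets and the medians over all autosomal protein-coding genes as dotted lines. Body differences are wide among the methylated genes at the top (Foxp2 42.7% and 64.6%) and narrow among the unmethylated ones at the bottom (Foxd3 1.68% and 2.18%), and Foxi2 is higher in XX.

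The bodies that differed were mostly those of long genes with several coding exons. The 21 measured bodies of genes up to 10 kb long had a median of 9.004% in XX and 10.1% in XO, and 2 of them (9.52%) were at least 10 points lower in XX. The 15 bodies of longer genes had a median of 22.4% and 35.2%, and 9 of them (60%) were lower by as much. Among all genes the same shares were 48.4% up to 10 kb and 68.1% beyond it. The share was thus lower among short forkhead genes than among short genes at large, and the shares of long genes lay closer together, although no test was made. By exon structure, the 14 measured members with 1 coding exon had a median of 6.43% and 8.64%, and 1 (7.14%) was lower by 10 points. The 22 with several coding exons had a median of 20.4% and 30.8%, with 10 (45.5%) lower and 1 (4.55%) higher. Over all genes, 64.6% of bodies were lower by as much and 0.517% were higher.

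**Figure D4:**
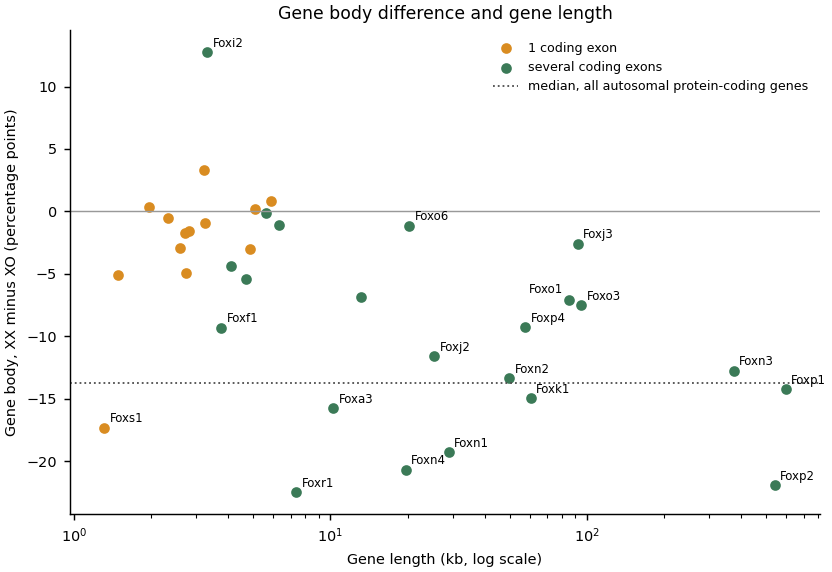
Gene body difference, XX minus XO in percentage points, against gene length (kb, log scale) for 35 measured forkhead genes, with single-coding-exon members in orange, the others in green and the median over all autosomal protein-coding genes dotted. Most members up to 10 kb lie near 0, apart from Foxs1, Foxr1, Foxi2 and Foxf1, and 9 of the 15 longer ones lie below -10 points.

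Upstream of the start the picture was mixed. The median stretch was at 14.2% in XX and 19.0% in XO, with a median difference of -4.61 points (24 genes measured, range -28.6 to 5.41). 18 stretches were lower in XX, 75% of those measured against 83.4% of all genes. At a threshold of 10 points 9 were lower, 37.5% against 46.9%, and 0 were higher, against 1.88%. The median over all genes was 20.3% and 31.9%, with a median difference of -8.85. 15 members had no listed upstream cytosine, and Foxe1 and Foxf2 had 4 and 3.

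Among stretches with at least 10 cytosines, Foxd2, Foxj1, Foxp4, Foxl2, Foxc1 and Foxb2 were lowest in XX relative to XO. Foxd2 averaged 38.8% (SD 14.6) in XX and 60.4% (SD 22.2) in XO over 11 cytosines, but 2 of its 4 fragment ends were lower and 2 higher. Foxj1 averaged 26.9% (SD 21.2) and 42.7% (SD 36.0) over 10 cytosines, and Foxp4 10.4% (SD 8.83) and 25.9% (SD 17.5) over 11, where all 6 fragment ends were lower. The better covered stretch of Foxl2 averaged 4.34% (SD 6.21) in XX and 17.5% (SD 21.5) in XO over 45 cytosines, with 11 of 14 fragment ends lower and both strands past 9 points. Foxc1 averaged 7.70% and 16.9% over 41 cytosines and Foxb2 11.8% and 18.2% over 53. The upstream differences of Foxl2 and Foxc1 thus stood beside promoters that differed by -2.10 and 1.01 points.

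Larger differences were seen where few cytosines were listed. Foxe3 averaged 42.6% in XX and 71.2% in XO on 5 cytosines, Foxo6 31.4% and 57.5% on 7, and Foxd1 14.1% and 37.4% on 8. Foxn1 averaged 35.8% and 57.7% on 6 and Foxp1 36.2% and 53.5% on 7. In Foxo6 and Foxd1 every listed upstream cytosine was lower in XX, although their promoters were higher. Foxd3 (6.86% and 8.03%, 39 cytosines) and Foxo3 (8.61% and 13.1%, 50 cytosines) had low upstream stretches. That of Foxh1 (6.67% and 10.005%, 61 cytosines) holds the start of Ppp1r16a on the opposite strand. It was less methylated than the 17 cytosines listed inside the Foxh1 gene. The stretches of Foxf1 (9.15% and 13.8%), Foxn4 (15.2% and 19.8%), Foxp2 (4.44% and 6.43%) and Foxl1 (14.2% and 14.7%) were lower in XX by less than 5 points.

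All 3 Foxa genes were higher in XX upstream, though by little. Foxa1 averaged 16.6% in XX and 12.6% in XO over 42 cytosines, Foxa2 9.31% and 7.45% over 37, and Foxa3 3.01% and 1.34% over 45. In Foxa2 6 of 7 fragment ends were higher in XX, in Foxa1 5 of 10 and in Foxa3 4 of 9, so the direction was not shared along the stretch except in Foxa2. The other stretches higher in XX were those of Foxb1 (24.9% and 21.8%), Foxc2 (26.8% and 26.2%) and Foxk1 (34.2% and 28.8%, on 8 cytosines).

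Over the whole regions, from 5 kb upstream to the gene end, 8272 forkhead cytosines averaged 10.4% in XX and 14.2% in XO, a difference of -3.76 points (SD 14.97). Of these cytosines 42.5% were lower in XX, 29.5% were higher and 27.4% were at 0% in both libraries. The same average over all autosomal protein-coding regions was 14.6% and 20.7%, a difference of -6.06. By annotation, forkhead introns carried the most methylation. Intronic cytosines beyond 1 kb of the start averaged 19.9% and 30.9% (1513 cytosines), while coding exons there averaged 8.54% and 10.6% (1677 cytosines). Other exonic sequence averaged 11.1% and 14.5%, and upstream sequence 12.5% and 16.6%. The difference between the libraries was widest in introns.

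Local CpG density ordered both the level and the difference. Forkhead cytosines with 1 to 5 CpGs of the reference within 100 bases averaged 31.0% in XX and 46.4% in XO, a difference of -15.4 points (763 cytosines). With 6 to 10 CpGs the averages were 18.6% and 28.2%, with 11 to 15 they were 11.8% and 14.5%, and with 16 to 20 they were 7.72% and 8.46%. At 21 CpGs or more they were 5.07% and 6.46% (4010 cytosines). The difference therefore shrank from the sparse to the dense classes, apart from a slight return in the densest. Of the forkhead cytosines 48.5% fell in this densest class, against 37.4% over all genes. Over all genes the differences were -16.7, -12.2, -4.08, -1.36 and -0.793 points from sparse to dense, and the forkhead values were -15.4, -9.58, -2.71, -0.748 and -1.39. The forkhead difference was thus smaller than that over all genes in every class but the densest, where it was larger. These contrasts were not tested.

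**Figure D5:**
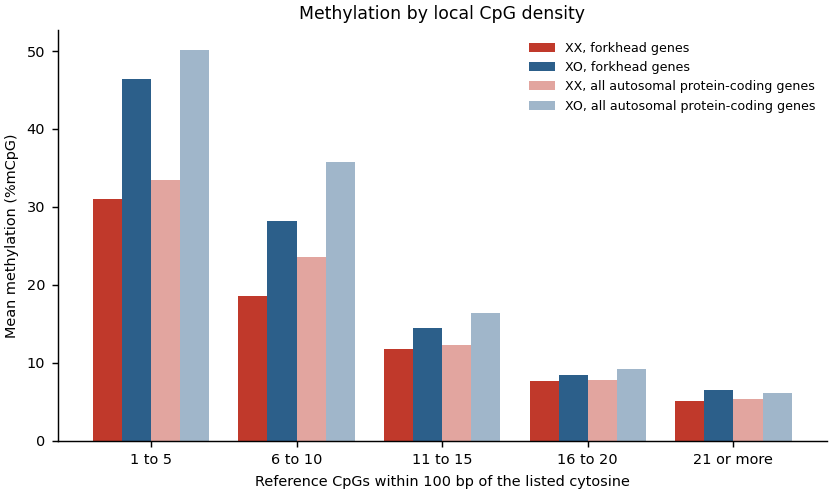
Mean methylation (%mCpG) by the number of reference CpGs within 100 bp of the listed cytosine, for forkhead genes (dark bars) and all autosomal protein-coding genes (pale bars), XX in red and XO in blue, with no error bars because there is 1 library per karyotype. Forkhead levels drop from 31.0% and 46.4% in the sparsest class to 5.07% and 6.46% in the densest.

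Several members have annotated coding starts more than 1 kb from the start of the gene record. The table lists at least 5 cytosines around 8 such windows in 6 genes, with medians of 4.401% in XX and 7.40% in XO. Foxj3, whose promoter by the gene record held no listed cytosine, averaged 2.56% in XX and 4.63% in XO over 229 cytosines around starts 2.66 kb inside the gene. The Foxj3 body value given above includes these cytosines. An internal Foxn3 start averaged 0.627% and 2.24% over 90 cytosines, and one of Foxp1, 494 kb inside the gene, 2.86% and 7.37% over 60. These internal starts were as low as the promoters at the gene records. Another internal start of Foxp1, 256.2 kb inside, was higher in XX, at 29.4% against 13.1%, on 6 cytosines. Inner starts of Foxm1 (21.6% and 29.8%) and Foxj2 (24.8% and 30.05%) were more methylated.

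Other families of developmental transcription factors had similar median promoter levels, while their shares of bodies and upstream stretches past the threshold were smaller. The 34 measured Hox promoters had a median of 6.06% in XX and 8.83% in XO, and the 58 of the Sox, Tbx, Pax, Gata, Lhx and Nkx genes 7.19% and 7.99%. For gene bodies the medians were 8.83% and 9.34% in the Hox genes and 12.4% and 15.8% in the other families, beside 13.2% and 14.3% in the forkhead genes. The median body difference was -1.03 points in the Hox genes, -4.88 in the other families and -5.01 in the forkhead genes. At least 10 points lower in XX were 30.6% of forkhead bodies, 16.4% of those of the mixed families and 6.67% of Hox bodies. For upstream stretches these shares were 37.5%, 26.8% and 15.6%. Over all genes they were 64.6% of bodies and 46.9% of upstream stretches. No test of these differences was possible with 1 library per karyotype.

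Promoters of genes that act with Foxh1 and the Foxo proteins were also read. Of 14 measured promoters of Nodal pathway genes, 2 were lower in XX by at least 5 points and 1 was higher, where 21.3% and 5.82% of all promoters were. Those lower were Gdf3, a Nodal-related ligand, at 7.30% in XX and 19.8% in XO, and Tdgf1, the Nodal co-receptor, at 31.0% and 72.8% on 7 cytosines, and the higher one was the receptor Acvr2b, at 10.7% and 3.42%. Of 11 measured promoters of Foxo regulators, 2 were lower (against the same 21.3%), the deacetylase Sirt1 (8.19% and 28.5%) and the kinase Sgk1 (23.2% and 28.3%). The median difference was 0.272 points over the Nodal list and -0.0769 over the Foxo list, so most promoters of either list differed little. Of 9 measured promoters of pluripotency genes, 2 were lower (again against 21.3%) and 0 were higher (against 5.82%). Those lower were Zfp42 (8.99% and 19.6%) and Tdgf1, which was already counted in the Nodal list. The pluripotency genes mark the cell type but were read here for methylation and not expression.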

How the data were processed

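RRBS libraries were prepared from sorted XX and XO Xmas mESCs with a NuGEN Ovation Methylseq kit on DNA from a Zymo kit. The submitters' processing notes name bcl2fastq, Bismark and mm10. Versions and the coverage minimum for listing a CpG are not given in the sources used here. The authors deposited the percent of methylated reads for 1782730 CpG cytosines, each with a value in both libraries, and with 0 further columns of sample values. Depth is unknown, because no counts or coverage were given in the table, so neither an interval nor a detection floor was computed, and values at either limit may reflect few reads.

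Positions were matched to GRCm38.p6 (890585 forward and 892094 reverse CpG cytosines, 51 elsewhere) and to GENCODE M21. Zones are those described above, with at least 5 cytosines. Means over cytosines were taken per zone and library, and differences are XX minus XO in percentage points. No test was made because each karyotype has 1 library. Promoters were counted as different at 5 points, bodies and upstream stretches at 10. A fragment end is 1 strand at 1 end of a CCGG-to-CCGG fragment.

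Counts and medians cover all members, but 1 member, 1 listed gene and 2 sequences are not reported here. Full values go to the 5 members highest in XO at the promoter, the 5 with the largest promoter difference below 0 and the 3 above 0, the 6 largest body and upstream differences below 0 among zones with at least 10 cytosines, all past the threshold above 0, and Foxd3, Foxh1, Foxa2, Foxo1, Foxo3 and Foxp1. Sequences come from members with large promoter differences and from those lowest in XO, plus the stretches said to be picked on their values. Members and gene lists were chosen with earlier results of these data known. Alternatives covered the CpG minimum, strand, zone width, threshold, medians and CpGs at 0% or 100%. The code was tested on simulated data. Scripts ran under Python 3.11.15 with pandas 2.3.3, numpy 2.4.6 and numba 0.67.0, and figures were drawn with matplotlib 3.10.9.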

Additional observations from a re-analysis of the deposited data

How the results depend on the processing

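Of 70 recomputed values, 52 stayed within 1.5 times the reported one. Of 37 recomputed differences, 36 were below 0 and the other was 0. The median promoter difference of -1.21 points became -1.93 without CpGs at 0% or 100% in both libraries, 0 when the median over cytosines was taken per gene, and -0.639 within 500 bp of the start. The count of 6 promoters lower in XX became 10 without CpGs at 0% or 100% in both, 11 on forward cytosines and 2 at a threshold of 10 points. The median body difference of -5.01 became -3.26 with medians over cytosines and -3.01 with bodies counted from the gene start, and the 11 bodies lower in XX became 3 at 20 points. The median upstream difference of -4.61 became -2.85 on forward cytosines and -2.54 over the whole 5 kb. The 9 upstream stretches lower in XX became 4 with at least 10 cytosines, 3 on forward and 5 on reverse cytosines, 4 over the whole 5 kb and 5 at 20 points. The difference over whole regions of -3.76 became -1.23 as a median over cytosines and -6.57 with each fragment end counted once, an alternative chosen after seeing the data. Stricter thresholds lower the counts by construction, and for the other changes the cause was not tested.

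No paired analysis was possible because each karyotype has 1 library. At the 2441 forkhead CpGs listed on both strands, the difference between the libraries varied between the strands by a median of 4.98 points. Over all autosomal CpGs this was 5.86 points. These are values at single CpGs, whereas the promoter threshold applies to means over cytosines. Of the listed cytosines, 42 of 8272 (0.508%) lie in 30 bases that have an exact copy elsewhere in the reference. The table lists 36.0% of the promoter CpG cytosines of the reference in the median member. For measured bodies the median was 19.1% (range 0.342% to 71.4%) and for measured upstream stretches 15.4%, so unlisted parts of a gene are not described.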

Other observations

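The X-linked forkhead genes, which are outside the autosomal set, were read in the same way. The promoter of Foxo4, the X-linked Foxo gene, averaged 1.57% in XX and 7.38% in XO over 21 cytosines, and its body 28.5% and 29.2% over 16. The promoter of Foxp3, the master gene of regulatory T cells, averaged 7.80% and 5.95% over 55 cytosines, and its body 45.9% and 51.0% over 11. Foxr2 had no listed cytosine in these zones. XX cells carry 2 copies of these genes and XO cells 1, and the table does not separate the alleles.

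CCGG sites, at which RRBS fragments begin, were frequent at forkhead starts. The median forkhead promoter held 15 of them (range 0 to 38), against 6 over all autosomal protein-coding promoters. Of the members without a promoter value, Foxq1 had 0 CCGG sites in its promoter, Foxj3 1 and Foxn1 2.

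Several members lie next to each other. On chromosome 8, Foxf1, Foxc2 and Foxl1 follow one another inside the annotated gene Gm20388, and their whole regions averaged 13.4%, 7.40% and 13.0% in XX and 15.8%, 10.5% and 13.7% in XO. On chromosome 13, Foxq1, Foxf2 and Foxc1 averaged 9.004%, 8.82% and 10.004% in XX and 12.0%, 11.6% and 9.998% in XO. On chromosome 4, Foxd2 and Foxe3 averaged 7.21% and 6.32% in XX and 10.6% and 8.70% in XO. The difference was thus below 4 points in all 8 of these genes.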
